A study of Strongylocentrotus purpuratus with 191 samples.

Results

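The genes gcm, Fmo2, gataC and Mitf, read by 22 probes, are 4 of the 74 genes on a custom panel that profiled the purple sea urchin, Strongylocentrotus purpuratus, at mid-gastrula. They were taken by name from the gene column of the normalized table, with no cutoff on a measured value. Earlier results of these data were known when they were chosen. The panel was an Illumina DASL assay, in which short oligonucleotide pairs are joined on cDNA, amplified and read on a bead array. It was run on 191 cultures of 32 crosses, which were raised at 3 temperatures (12C, 15C and 18C) with 2 replicate cultures of each combination, except 1 combination with 1 culture. Warmer cultures were sampled earlier, at mean sampling times of 37.5 at 12C, 28.4 at 15C and 23.1 at 18C (the labels give no unit), so temperature and age at sampling cannot be told apart. In each of blocks 3 and 4, 4 females were mated to 4 males to give 16 crosses. An animal's name joins a letter to its block number, and crosses are written with the female ahead of the male. Female C3 and male C3 are different animals. Each block had its own plate, so the parents of a block and its plate cannot be told apart. Temperature nearly matched the rows of the plates, and the part of the rows was not tested.

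In the sea urchin embryo, Delta ligand from the skeletogenic mesenchyme activates Notch in neighbouring cells, and part of those cells become non-skeletogenic mesoderm. The transcription factor gene gcm (glial cells missing) is a direct target of that signal and is needed for pigment cells. Fmo2 encodes a flavin-containing monooxygenase of the pigment cell battery, which gcm is known to drive. gataC encodes a GATA factor of the non-skeletogenic mesoderm, with a known role in blastocoelar cells. Mitf encodes a bHLH leucine zipper transcription factor known in vertebrates as a regulator of melanocytes. In the reference gene table, gcm and gataC (listed there as GATAc) were matched, and Fmo2 and Mitf keep the name of the files.

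The 6 probes of gcm are shown because its differences between parents depended on which probes were read. The letters are those of the deposited probe list, 5′ to 3′ as given there, and no base was marked.
gcm probe 1, exon 1: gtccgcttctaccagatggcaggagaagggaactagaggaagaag
gcm probe 2, exon 2: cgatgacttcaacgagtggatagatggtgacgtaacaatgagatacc
gcm probe 3, exon 2: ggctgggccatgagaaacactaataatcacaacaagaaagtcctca
gcm probe 4, exon 6: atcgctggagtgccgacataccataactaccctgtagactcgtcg
gcm probe 5, exon 6: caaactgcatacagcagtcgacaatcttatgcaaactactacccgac
gcm probe 6, exon 6: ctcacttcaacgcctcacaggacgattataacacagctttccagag

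For gataC and Fmo2, probes of neighbouring exons or of the same exon that behaved differently are shown.
gataC probe 5, exon 4: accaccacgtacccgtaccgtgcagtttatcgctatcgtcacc
gataC probe 6, exon 4: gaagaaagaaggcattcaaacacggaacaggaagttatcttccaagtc
Fmo2 probe 4, exon 6: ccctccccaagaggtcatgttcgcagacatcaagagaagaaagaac
Fmo2 probe 5, exon 7: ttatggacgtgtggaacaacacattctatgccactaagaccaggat
The 22 probes were 43 to 48 bases long. GC content was 44.7% in both gcm probe 2 and gcm probe 5, 47.8% in gcm probe 6, and 55.8% in gataC probe 5.

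Gene values were averages over probes of the authors' normalized log2 table, in which every probe has a mean of 0 on each plate. Changes are differences on that log2 scale, ± SE unless stated. Levels were read from the non-normalized table as log2 over the mean of the 27 negative controls of the same array, and carry no order between genes, since they are set by the probes. In block 3 the 4 levels averaged 1.17 ± 0.44 for gcm, 1.33 ± 0.22 for Fmo2, 1.31 ± 0.32 for gataC and 3.64 ± 0.31 for Mitf (SD, n = 96). In block 4 they averaged 3.47 ± 0.35, 2.65 ± 0.33, 3.01 ± 0.36 and 5.14 ± 0.26 (SD, n = 95). All 4 genes were therefore read nearer to background in block 3. This was not particular to them, since array medians over the panel's probes were also lower there. The mean array median (log2) in block 3 was 9.67 at 12C, 9.97 at 15C and 10.05 at 18C. In block 4 it was 12.19, 12.19 and 12.20. A probe was called detected in a culture when a share under 0.05 of the array's negative controls reached its value. By that rule gcm probe 3 was detected in 5 of 96 cultures of block 3 and 32 of 95 of block 4, and Fmo2 probe 2 in 7 of 96 and 7 of 95. The 5 Mitf probes were detected in every culture. The replicate cultures differed by an SD of 0.19 for gcm, 0.22 for Fmo2, 0.22 for gataC and 0.14 for Mitf, against a median of 0.19 over the panel. The labels do not say that replicates were separate fertilizations, so the main tests of temperature and parents used means over them. The slope on culture stage was fitted on the 191 single cultures instead. Each RNA came from whole embryos, so fewer cells of a type and less RNA per cell cannot be told apart. Endoderm, skeletogenic mesenchyme and ectoderm markers were also present, with all 12 more than 1 log2 unit over the negative controls in each block.

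Offspring of different mothers, and of different fathers, differed widely in gcm in block 3, and the differences were wide for the probes of exon 6 and narrow for those of exons 1 and 2. In block 3 the mean of gcm over 4 crosses was 0.28 ± 0.18 for female A3, 0.25 ± 0.12 for B3, -0.21 ± 0.41 for C3 and -0.31 ± 0.40 for D3 (SD, n = 4). Offspring of female A3 were thus 1.51-fold above those of D3, the widest range between females of any of the 74 genes in that block, where the median range was 1.11-fold. Among males the means were 0.35 ± 0.17 for C3, 0.04 ± 0.14 for A3, -0.20 ± 0.48 for B3 and -0.20 ± 0.44 for D3 (SD, n = 4). That range of 1.47-fold was also the widest of the block. In block 4 the ranges were 1.13-fold between females and 1.05-fold between males, at ranks 39 and 67 of the 74 genes.

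**Figure D1:**
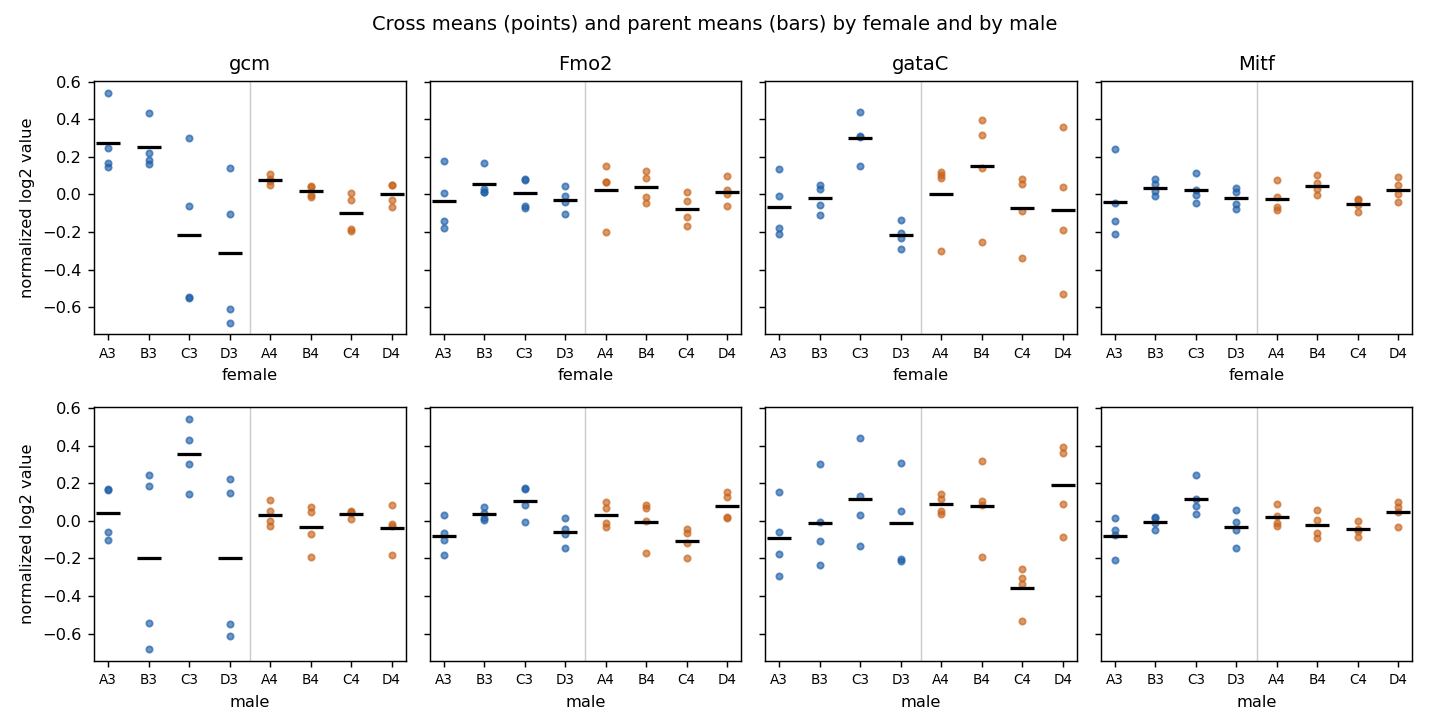
Normalized log2 values of gcm, Fmo2, gataC and Mitf by female (top row) and by male (bottom row), blue for block 3 and orange for block 4. Each point is the mean of 1 cross over temperatures and replicates and each bar the mean of the 4 crosses of a parent. The crosses of females C3 and D3 spread from -0.68 to 0.30 for gcm, and the 4 crosses of male C4 are low for gataC averaged over all its probes.

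Over 32 cross means the dam effect on gcm had a moderated F of 12.7 (limma, adjusted p = 2.39e-05) and the sire effect an F of 8.93 (adjusted p = 0.000336). gataC also passed both tests, with F = 9.40 (adjusted p = 0.000176) for dams and F = 10.6 (adjusted p = 0.000112) for sires. Fmo2 (F = 5.42, adjusted p = 0.00436) and Mitf (F = 4.26, adjusted p = 0.0113) passed the sire test. Neither passed the dam test, with adjusted p = 0.156 for Fmo2 and 0.221 for Mitf. Fmo2 did pass it with its brightest probe (F = 4.86, adjusted p = 0.00819) and on the quantile-normalized form of the non-normalized table (adjusted p = 0.0153). Parent effects were common on this panel: 81.1% of genes passed the dam test and 75.7% the sire test. The 2 of 4 genes for dams is under that share. The 4 of 4 for sires is above it, but the set is small and the excess was not tested. The share of variance among cultures that fell to dams was 34.7% for gcm, the highest of the 74 genes, against a panel median of 11.2%. It was 22.8% for gataC, 1.77% for Mitf and 0% for Fmo2. The sire share was 27.1% for gataC, 23.4% for gcm, 12.5% for Mitf and 8.46% for Fmo2, against a median of 8.32%. The dam-by-sire share of gcm was 7.80%, where the panel median was 0%.

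The gene mean of gcm averaged probes that behaved differently. In block 3, probe 6 had cross means of -2.23 to -1.95 in 4 crosses and of 0.48 to 1.09 in the other 12, with nothing between. The 4 low crosses were C3xB3, C3xD3, D3xB3 and D3xD3, that is, every cross of female C3 or D3 with male B3 or D3. Crosses of the same females with males A3 and C3 lay at 0.57 to 0.79, and crosses of males B3 and D3 with females A3 and B3 also lay among the 12 higher ones. The low value was thus tied to the combination of mother and father, not to either alone.

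Probe 5 of gcm, in the same exon, was lowest in those 4 crosses, at -1.27 to -1.04, and took middle values in part of the others. It lay at -0.57 to 0.33 in crosses of females C3 and D3 with males A3 and C3, and at 0.36 to 1.10 in the 8 crosses of females A3 and B3. Probe 4, also of exon 6, ran from -0.53 to -0.16 in the 4 low crosses and from -0.34 to 0.59 in the other 12, and these ranges overlapped. The probes of exons 1 and 2 showed no such split. In the 4 crosses probe 1 lay at -0.02 to 0.03, probe 2 at -0.10 to 0.11 and probe 3 at 0.00 to 0.17, within or close to the range of the other 12 crosses, which ran from -0.20 to 0.27 over these 3 probes.

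**Figure D2:**
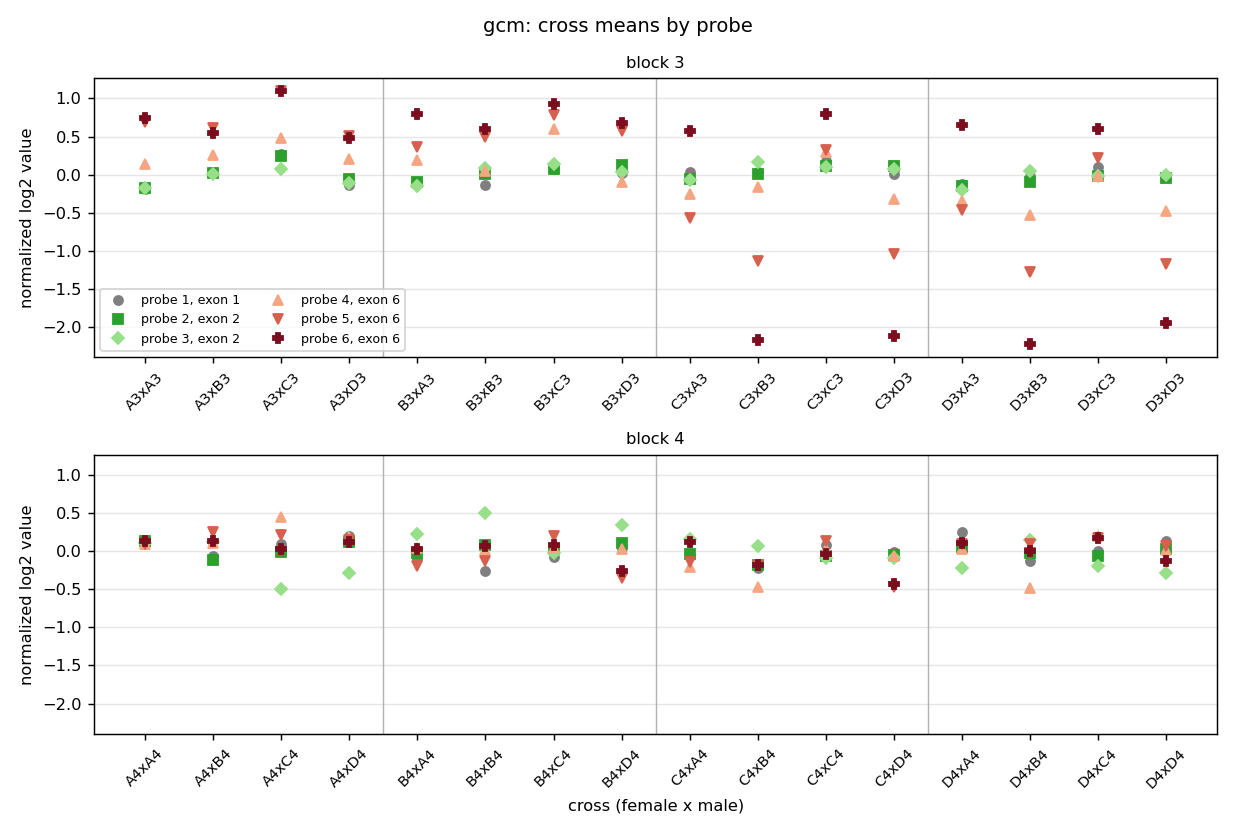
Cross means of the 6 gcm probes on the normalized log2 scale, with the 16 crosses of block 3 (top) and of block 4 (bottom) on the x axis, named female x male. Probe 6 lies below -1.9 in C3xB3, C3xD3, D3xB3 and D3xD3 and above 0.4 in the other 12 crosses of block 3, while probes of exons 1 and 2 stay between -0.20 and 0.27 there; in block 4 no gcm probe leaves -0.50 to 0.50.

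The same split was seen culture by culture and at each temperature. In the 24 cultures of the 4 crosses, probe 6 ran from -2.77 to -1.05, and in the 72 other cultures of block 3 from -0.25 to 1.62. At 12C the 8 and 24 cultures ran from -2.37 to -1.74 and from -0.25 to 1.37, at 15C from -2.64 to -1.77 and from 0.26 to 1.62, and at 18C from -2.77 to -1.05 and from 0.34 to 1.48. The 2 sets of cultures did not overlap at any temperature. On the non-normalized scale probe 6 reached at most 0.62 over the negative controls in the 24 cultures and at least 1.92 in the 72 others. It was detected in 1 of the 24 and in 72 of the 72. Probe 5 was detected in 0 of the 24 and in 66 of the 72, with at most -0.00081 over the negative controls in the 24 and at least 0.28 in the 72. Probe 1 was detected in all 96 cultures of the block, and probe 4 in 18 of the 24, so gcm RNA was read in cultures where probes 5 and 6 were at or near background. These crosses were picked out after their values were seen, so the split is given as a description, with no test.

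The dam call on the mean of the gcm probes was lost without exon 6. With gcm taken from the 3 probes of exon 6 the dam F was 13.1 (limma, adjusted p = 2.61e-05), and with the 3 probes of exons 1 and 2 it was 2.13 (adjusted p = 0.101). The sire effect passed with either set, at F = 8.34 (adjusted p = 0.000554) for exon 6 and F = 5.76 (adjusted p = 0.00348) for exons 1 and 2. From exon 6 the offspring of female A3 were 2.22-fold above those of D3 and the offspring of male C3 were 2.01-fold above those of B3. From exons 1 and 2 the widest ranges in block 3 were 1.07-fold between females (C3 over D3) and 1.17-fold between males (C3 over A3). By single probe, gcm probe 3 of exon 2 did pass the dam test (limma, F = 6.76, adjusted p = 0.00213). That probe was near background, detected in 5 of 96 cultures of block 3 and 32 of 95 of block 4. Probes 1 and 2 did not pass the dam test (limma, adjusted p = 0.0512 and 0.0995). The highest-numbered exon was set against the others on 57 genes with probes in more than 1 exon. The value was the mean of the probes of that exon minus the mean of the other probes. This difference varied between dams for gcm (F = 11.4, adjusted p = 0.000345) and gataC (F = 6.65, adjusted p = 0.00291), and between sires for gataC (F = 7.97, adjusted p = 0.00173) and gcm (F = 6.94, adjusted p = 0.00248). Fmo2 and Mitf passed neither, with adjusted p = 0.225 and 0.0724 for dams and 0.0525 and 0.739 for sires. Over the 57 genes 38.6% passed for dams and 40.4% for sires, so a probe difference between parents was not particular to gcm or gataC. The comparison was added after probe values were seen. It pools the probes of an exon, so it cannot tell an exon from a single probe in it. In gataC that exon holds probe 5, at -2.20 and -2.52 in B4xC4 and D4xC4, and probe 6, at -0.07 and 0.05. The cause of the differences between probes was not tested, and no sequence of the parents was used here.

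Splits of this size were uncommon by probe. The range of cross means within a block exceeded 2 log2 units for 5 of the 336 probes in block 3 and for 6 in block 4, where the median ranges were 0.47 and 0.60. Of these 11 cases, 2 were gcm probes in block 3 (3.32 for probe 6 and 2.37 for probe 5) and 1 was gataC probe 5 in block 4 (3.69). By probe, 15 of the 22 passed the dam test and 15 the sire test, against 61.3% and 51.8% of the 336 probes. All 6 gataC probes passed the dam test (F from 2.96 to 12.8) and all 6 gcm probes the sire test (F from 4.21 to 11.3).

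gataC differed most between mothers in block 3 and between fathers in block 4. In block 3 its mean was 0.30 ± 0.12 for female C3, -0.02 ± 0.08 for B3, -0.07 ± 0.16 for A3 and -0.22 ± 0.07 for D3 (SD, n = 4). The 4 crosses of C3 lay at 0.15 to 0.44 and those of D3 at -0.29 to -0.13, a 1.43-fold difference of means without overlap. In block 4 the males gave 0.19 ± 0.23 for D4, 0.09 ± 0.05 for A4, 0.08 ± 0.21 for B4 and -0.36 ± 0.12 for C4 (SD, n = 4). As means of all probes, the 4 crosses of male C4 lay at -0.53 to -0.25, below the 12 others. D4 over C4 was 1.46-fold, the widest range between males of the 74 genes in block 4. In B4xC4 and D4xC4 the low mean rested largely on probe 5 (-2.20 and -2.52), while the other gataC probes lay at -0.55 to 0.41. The order of crosses and the fold without probe 5 are not given here. With block 4 alone the dam effect on gataC gave F = 2.52 (adjusted p = 0.135), and with block 3 alone F = 32.5 (adjusted p = 2.52e-05). The sire effect on gataC passed in both, with F = 5.22 (adjusted p = 0.0338) in block 3 alone and F = 13.1 (adjusted p = 0.00347) in block 4 alone.

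In block 4, probe 5 of gataC in exon 4 stood apart. It had cross means of -2.20 in B4xC4 and -2.52 in D4xC4, against -0.50 to 1.18 in the other 14 crosses. The other 5 gataC probes lay at -0.55 to 0.41 in those 2 crosses, within the range of the 14 others for 4 of them. Probe 5 was detected in 0 of the 12 cultures of the 2 crosses and in 74 of the 83 others. Single cultures overlapped, with -3.52 to -1.13 in the 12 and -2.20 to 1.68 in the 83. Without probe 5 the sire effect on gataC was F = 5.66 (limma, adjusted p = 0.00395) and the dam effect F = 11.8 (adjusted p = 3.72e-05), so both remained called. In block 3, probe 5 was instead high in the 4 crosses of female C3, at 0.48 to 0.72 against -0.45 to 0.05 in the 12 others, while the other gataC probes in these 4 crosses ran from -0.01 to 0.49.

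**Figure D3:**
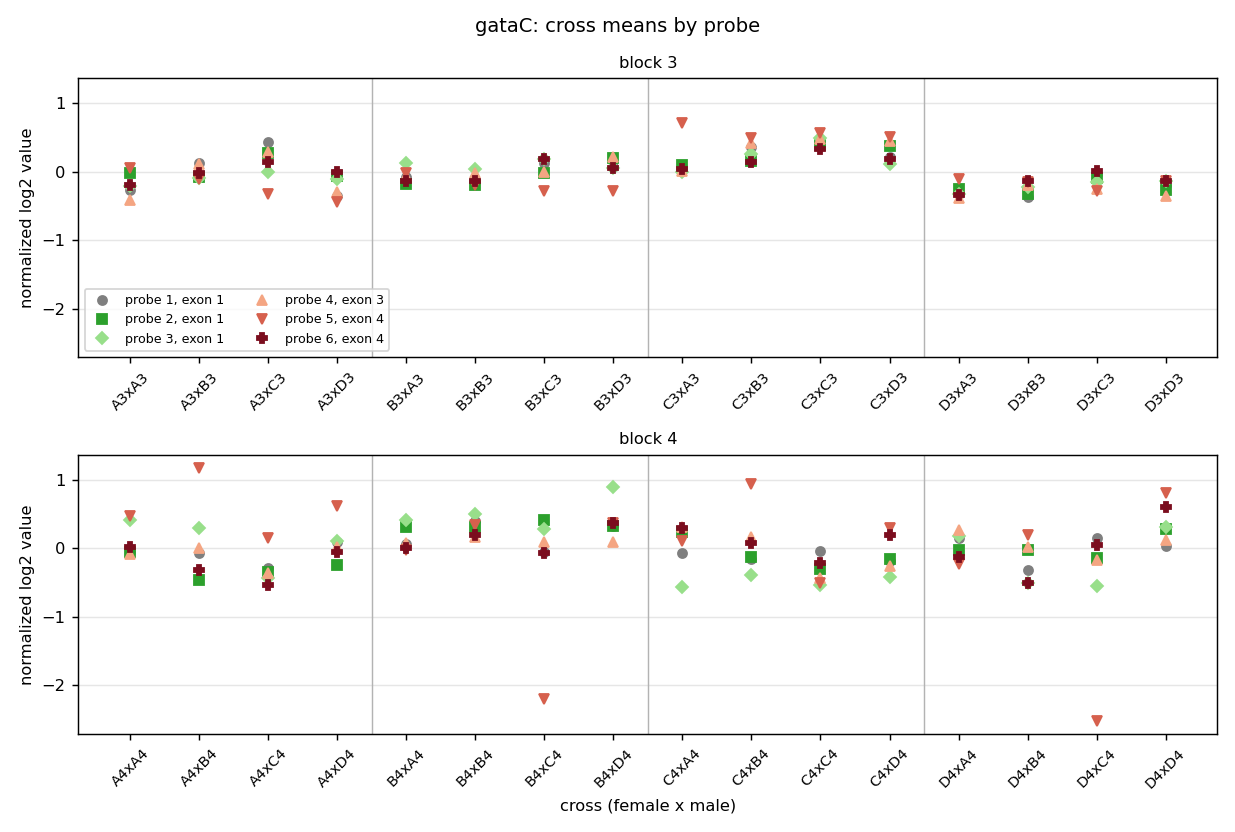
Cross means of the 6 gataC probes on the normalized log2 scale for the 16 crosses of block 3 (top) and of block 4 (bottom), named female x male. Probe 5 falls to -2.20 in B4xC4 and -2.52 in D4xC4 while the other 5 probes stay between -0.55 and 0.41 in these crosses; in block 3 the crosses of female C3 lie high and those of D3 low for most probes.

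Fmo2 and Mitf differed little between females, with ranges at ranks 56 to 71 of the 74 genes. Between males the range of Fmo2 ranked 24 and 31 in blocks 3 and 4, and that of Mitf 19 and 61. The panel median between males was 1.12-fold in each block. The ranges between parental means were 1.07- to 1.14-fold for Fmo2 and 1.05- to 1.15-fold for Mitf in the 2 sexes and blocks. For both genes male C3 gave the highest mean and male A3 the lowest in block 3 (1.14-fold for Fmo2 and 1.15-fold for Mitf), and in block 4 male D4 the highest and male C4 the lowest (1.14-fold and 1.07-fold). The sire effects of both were lost when array medians were removed (adjusted p = 0.0597 for Fmo2 and 0.393 for Mitf) and without replicate 2 (adjusted p = 0.381 and 0.611). The gcm and gataC sire effects passed in both of these settings. With block 3 alone all 4 genes had a called sire effect (adjusted p = 0.00238 for gcm, 0.0243 for Fmo2, 0.0338 for gataC and 0.0383 for Mitf). With block 4 alone gataC was the 1 gene of the 4 that passed, with adjusted p = 0.228 for gcm, 0.0557 for Fmo2 and 0.0893 for Mitf.

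The question of how the genes respond to temperature was answered within crosses. Mitf was the 1 gene of the 4 that rose from 12C to 18C past the threshold, by 0.09 ± 0.03 (limma, adjusted p = 0.0290), and it was higher in 24 of 32 crosses. At 12C, 15C and 18C its mean over crosses was -0.05 ± 0.16, 0.00 ± 0.11 and 0.05 ± 0.13 (SD, n = 32), so the groups overlapped widely. On the panel 17.6% of genes passed this test and 10.8% were higher at 18C. The change of gcm was 0.09 ± 0.04 (adjusted p = 0.0968, higher in 20 of 32 crosses) and that of gataC -0.09 ± 0.04 (adjusted p = 0.124, lower in 20 of 32 crosses), neither past the threshold. Fmo2 changed by 0.01 ± 0.04 (adjusted p = 0.864), with a 95% interval of -0.07 to 0.10. From 12C to 15C and from 15C to 18C none of the 4 genes passed, and 4.05% of the panel passed in each. In those comparisons the 4 estimates ran from -0.05 to 0.05 and from -0.04 to 0.08.

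The Mitf call was near the threshold. Its change was 0.09 in block 3 (adjusted p = 0.317) and 0.10 in block 4 (adjusted p = 0.130), taken from 1 fit over both blocks, and a fit of block 4 alone called it (0.10, adjusted p = 0.0310). Its adjusted p was 0.323 without replicate 1, 0.0576 without replicate 2, 0.0592 with culture stage as a covariate and 0.0726 with the median of probes. With array medians removed gcm (0.08, adjusted p = 0.0126) and gataC (-0.11, adjusted p = 0.00603) also passed, with their directions as before.

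**Figure D4:**
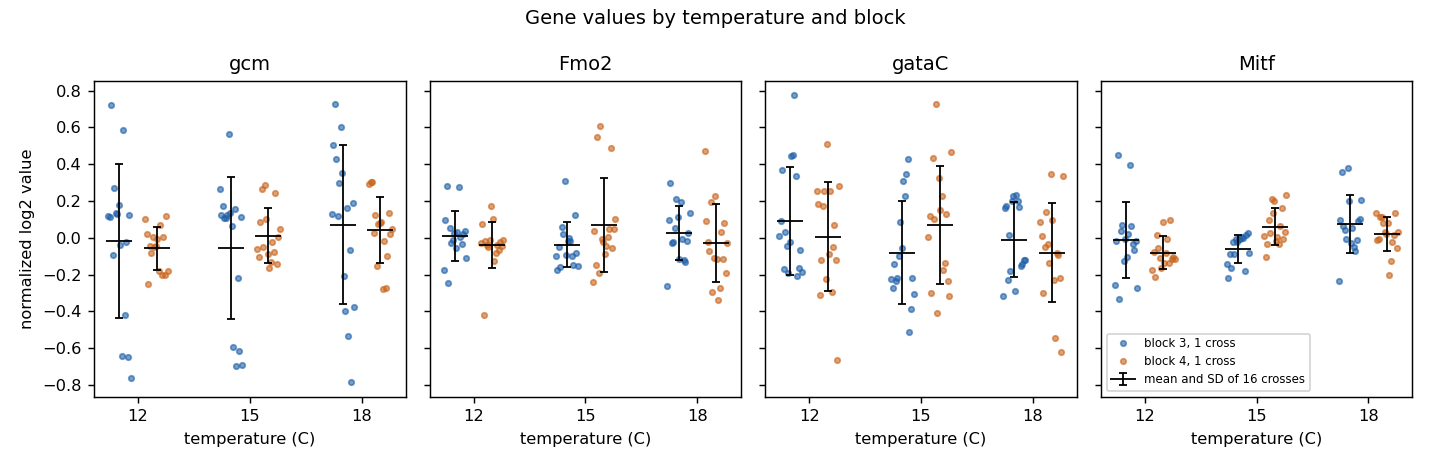
Normalized log2 values of the 4 genes at 12C, 15C and 18C, blue for block 3 and orange for block 4. Each point is 1 cross (mean of its replicates) and the black bars are the mean and SD of 16 crosses; gcm spreads from -0.79 to 0.73 in block 3 at 18C, and Mitf at 15C lies higher in block 4 (0.06) than in block 3 (-0.06).

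By probe, the 5 Mitf probes and the 6 gcm probes were all higher at 18C than at 12C (0.05 to 0.12 and 0.03 to 0.12), and all 6 gataC probes were lower (-0.23 to -0.01). Of these 17 probes, Mitf probe 1 (0.11 ± 0.03, adjusted p = 0.0285) and Mitf probe 2 (0.12 ± 0.04, adjusted p = 0.0239), both in exon 2, passed over the 336 probes. Fmo2 was mixed: probe 5 in exon 7 fell by 0.14 at 18C (SE 0.03, adjusted p = 0.00217), while probe 4 in exon 6 changed by 0.01 (adjusted p = 0.900). Over all probes 8.93% passed, 5.06% higher and 3.87% lower.

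The response to 15C differed between blocks for Mitf. In block 4 Mitf rose from 12C to 15C by 0.14 ± 0.04 (limma, adjusted p = 0.0201) and was higher in 14 of 16 crosses, where 12.2% of genes passed. In block 3 the change was -0.05 ± 0.04 (adjusted p = 0.612), lower in 9 of 16 crosses, where 1.35% of genes passed and none of the 4. The test of temperature by block passed for Mitf (F = 6.31, adjusted p = 0.0259) and, on the panel, for 16.2% of genes. It gave F = 4.94 (adjusted p = 0.0558) for gataC, F = 2.27 (adjusted p = 0.245) for Fmo2 and F = 1.14 (adjusted p = 0.471) for gcm. For the change from 12C to 15C alone, block 4 minus block 3, the difference was 0.19 ± 0.06 for Mitf (adjusted p = 0.0243) and 0.23 ± 0.08 for gataC (adjusted p = 0.0497), where 13.5% of genes passed, all with a positive difference. gataC itself changed by -0.17 ± 0.06 in block 3 (adjusted p = 0.171, lower in 14 of 16 crosses) and by 0.06 ± 0.06 in block 4 (adjusted p = 0.481). The median change over all genes was -0.04 in block 3 and 0.05 in block 4, and the median difference over all genes was 0.11. With array medians removed the difference for Mitf was 0.08 (adjusted p = 0.354) and that for gataC 0.13 (adjusted p = 0.453). Without replicate 1 the difference for Mitf was 0.15 (adjusted p = 0.542) and without replicate 2 it was 0.24 (adjusted p = 0.0364). The gataC difference was not called without either replicate (adjusted p = 0.232 and 0.277), and the rise of Mitf in block 4 was not called without replicate 1 (adjusted p = 0.197) or replicate 2 (adjusted p = 0.0532). Mitf probe 5 and Fmo2 probe 3 passed the temperature-by-block test by probe, against 9.82% of probes. With gcm taken from exons 1 and 2, its rise from 12C to 15C in block 4 was 0.14 (adjusted p = 0.0461), and from exon 6 it was 0.00434 (adjusted p = 0.977).

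No difference between mothers or between fathers in the response to temperature passed the threshold for the 4 genes. The dam-by-temperature F was 0.87 for gcm, 0.53 for Fmo2, 1.55 for gataC and 1.11 for Mitf, with adjusted p from 0.621 to 0.942. The sire-by-temperature F was 0.66, 0.51, 0.76 and 0.81, each with adjusted p = 0.996. In limma 0 of 74 genes (0%) passed either test, with 7 and 2 at an unadjusted p under 0.05. The slope on culture stage, per 0.1 of the score given in the labels, was 0.02 ± 0.03 for gcm, -0.01 ± 0.03 for Fmo2, 0.01 ± 0.03 for gataC and 0.02 ± 0.02 for Mitf (adjusted p from 0.825 to 0.898). In that test 1.35% of genes and 0.893% of probes passed, and none of the 22 probes did.

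gcm and its target Fmo2 were then compared over crosses, with values centred on the block mean. Over 32 crosses Pearson's r was 0.248 (permutation p = 0.178, adjusted over 6 pairs 0.267) and Spearman's rho 0.320 (p = 0.0684, adjusted 0.103). In block 3 r was 0.282 (permutation p = 0.290) and in block 4 0.354 (p = 0.178), over 16 crosses each. At single temperatures r was 0.443 at 12C (permutation p = 0.0133), 0.368 at 15C (p = 0.00364) and 0.394 at 18C (p = 0.00972). Each of these values had both genes on the same arrays. Over all temperatures, gcm of replicate 1 with Fmo2 of replicate 2, on different arrays, gave r = 0.137 (permutation p = 0.439). The other way round r was 0.159 (permutation p = 0.347). On the non-normalized table r was 0.030 with arrays centred (permutation p = 0.879) and 0.111 after quantile normalization (permutation p = 0.414). In block 3 the gcm values fell into separate clusters, the 4 low crosses and the rest. Over the 12 other crosses of block 3 r was 0.771 and rho 0.762, given as a description with no test because the 4 crosses were set aside for their gcm values. The 4 low crosses are too few for a value of their own.

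The relation depended on which gcm probes were used. With the probes of exons 1 and 2, r was 0.776 over 32 crosses (permutation p = 1e-05, the smallest that 100000 resamples can give) and rho 0.698 (p = 5e-05). It was 0.801 in block 3 (permutation p = 0.00014) and 0.760 in block 4 (permutation p = 0.00059). Leaving out the 2 crosses farthest from the median of gcm gave r = 0.709 (p = 2e-05). With the probes of exon 6, r was 0.123 (permutation p = 0.514), at 0.179 in block 3 and 0.00504 in block 4. Of the 15 pairs of a gcm probe of exons 1 and 2 with a Fmo2 probe, the median r was 0.381, and of the 15 pairs with a gcm probe of exon 6 it was 0.105. The highest r, 0.635, was with Fmo2 probe 1, detected in 12 of 96 cultures of block 3 and 34 of 95 of block 4. Fmo2 probe 5, detected in 95 of 96 and 95 of 95, gave -0.026, 0.007 and -0.148 with gcm probes 1, 2 and 3. Fmo2 probe 4, detected in every culture, gave 0.552, 0.389 and -0.069. The choice of exons was made after the values were seen.

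**Figure D5:**
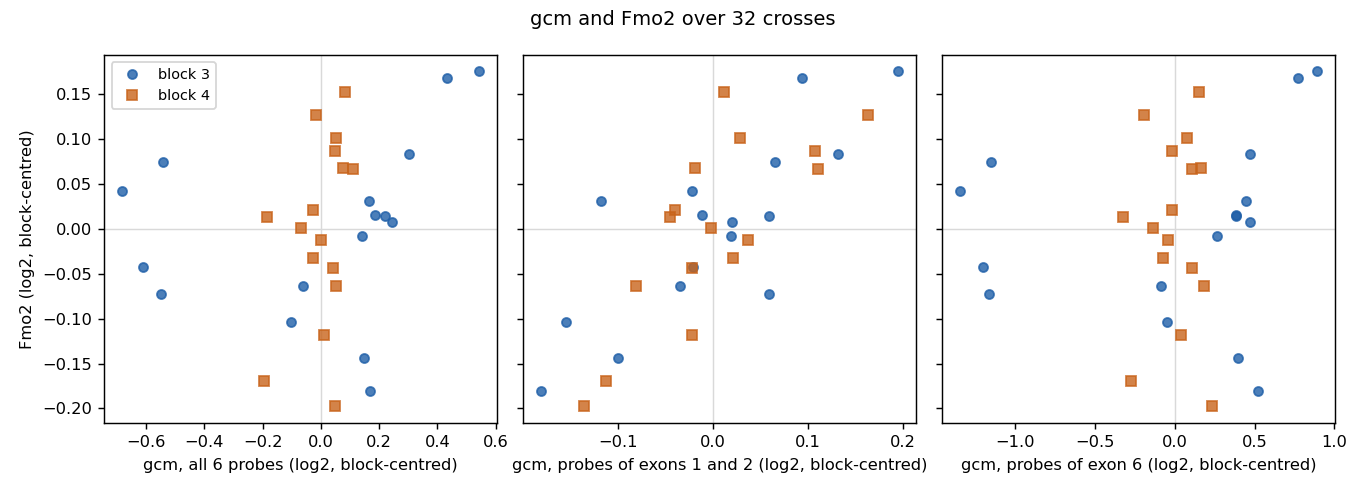
Fmo2 against gcm over 32 crosses, each point 1 cross mean centred on its block (log2), circles for block 3 and squares for block 4; gcm is the mean of all 6 probes (left), of the probes of exons 1 and 2 (middle) or of exon 6 (right). The points follow a rising line in the middle panel (r = 0.776) and not in the right panel (r = 0.123), where the 4 low crosses of block 3 lie at the far left.

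Cross values of both genes come from the same arrays. With gcm of exons 1 and 2 in replicate 1 and Fmo2 in replicate 2, which are different arrays, r was 0.294 (permutation p = 0.112), and the other way round 0.387 (p = 0.0239). With both genes from the arrays of replicate 1 it was 0.761 (permutation p = 1e-05), and from those of replicate 2 it was 0.512 (p = 0.00228). Each of these 4 values rests on 1 replicate a gene, and the difference between same and different arrays was not tested. With array medians removed it was 0.388 (permutation p = 0.0347). For the mean of all gcm probes it was then -0.020 (permutation p = 0.902). The 32 crosses share parents. Over the 8 male means r with exons 1 and 2 was 0.855 (exact permutation p = 0.00868) and over the 8 female means 0.595 (exact permutation p = 0.189). Over all 2701 pairs of genes the median r was 0.388, so a positive r was usual on this panel.

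Among the other pairs, Fmo2 with Mitf had the highest r, at 0.837 (permutation p = 1e-05, adjusted 6e-05), with 0.901 in block 3 and 0.806 in block 4. Fmo2 with gataC gave 0.529 (adjusted p = 0.00468, permutation) and gataC with Mitf 0.518 (adjusted p = 0.00468, permutation). The r of Fmo2 with gataC was the median r of Fmo2 with the other 73 genes (0.529). The r of gataC with Mitf was below the median of Mitf (0.552). Both were above the median of gataC (0.420). The permutation tests were against no correlation, not against these medians. gcm with gataC gave 0.035 (permutation p = 0.840) and gcm with Mitf 0.272 (p = 0.227). With gcm from exons 1 and 2, r was 0.811 with Mitf and 0.643 with gataC, beside 0.776 with Fmo2, so the high r was not particular to Fmo2. The Mitf and gataC values of exons 1 and 2 were not tested. These pairs share arrays too, and they were not run between replicates.

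The genes whose cross means were most like each gene were named by r over the 32 block-centred means, as a description. For gcm they were deadringer, an ARID transcription factor gene (0.617), Msp130, a biomineralization cell surface gene (0.504), and FoxG, a forkhead gene (0.490). Fmo2 ranked 26th of 73 for gcm. With gcm from exons 1 and 2 they were SoxC (0.844), the spicule matrix gene SM50 (0.840) and the homeobox gene Dlx (0.816), and Fmo2 ranked 7th. For Fmo2 they were Mitf (0.837), SM50 (0.833) and SoxC (0.832). For gataC they were Ets1, a mesoderm transcription factor gene (0.756), SM50 (0.675) and the signal gene nodal (0.660). For Mitf they were soxb1 (0.909), Dlx (0.879) and the skeletogenic gene P19 (0.846). The median r with the other 73 genes was 0.196 for gcm, 0.529 for Fmo2, 0.420 for gataC and 0.552 for Mitf. For gcm from exons 1 and 2 that median was 0.503, beside its r of 0.776 with Fmo2.

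Of a list of 19 Delta-Notch and mesoderm genes beside the 4, 9 were on the panel. At 18C against 12C, Erg, an Ets-family factor gene (-0.15 ± 0.04, adjusted p = 0.0133), and Su(H), the DNA-binding partner of Notch signalling (-0.08 ± 0.03, adjusted p = 0.0141), fell, and the median change of the 9 was -0.00248, against 0.02 over all 74 genes. Ets1 and notch passed the temperature-by-block test (F = 9.30, adjusted p = 0.00349, and F = 10.6, adjusted p = 0.00259). In the dam test 8 of the 9 passed, the exception being notch, and in the sire test 5 did (delta, Erg, Ets1, gatae and Hex). On the whole panel 81.1% of genes passed for dams and 75.7% for sires, so 8 of 9 is near that background and 5 of 9 below it, while the 2 of 9 at 18C against 12C and for temperature by block stand beside 17.6% and 16.2%. The dam F of Erg, 27.6 (adjusted p = 1.69e-07), was above that of gcm.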

How the data were processed

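RNA of 191 cultures was measured on the DASL array. The authors' deposited normalized values are log2 values whose mean is 0 for every probe on each plate, as seen in the values, and their normalization is not given in the sources used here. The deposited non-normalized table holds intensity that was read as log2 from its range. BeadStudio stands in the submitters' processing notes. Array columns were matched to cultures through plate, row and column in the labels, and 1 column of an array of poor quality was not used.

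Models were fitted in limma (lmFit and eBayes) on all 74 genes, or all 336 probes, with Benjamini-Hochberg adjustment over all of them and a threshold of 0.05. Temperature was fitted on 96 means, 1 for each cross and temperature, with a fixed term for the cross. Moderated F tests for dams and sires used 32 cross means. The stage slope was fitted on the 191 cultures, adjusted for cross and temperature. Variance shares came from REML fits in lme4. Correlations were tested two-sided by permuting crosses within block. The fits were also run on simulated data with independent noise for each gene. That simulation held no array-wide shift, no probe near background and no sire effect, so it does not bear on these. The number of cultures limits the precision, and the dam and sire tests rest on 8 females and 8 males. The p-values weigh an effect against the spread between these samples. Permuting crosses within block does not keep crosses of the same parent together. Versions were R 4.3.3, limma 3.58.1, lme4 1.1.37 and scipy 1.17.1.

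The members, the gene list and the alternatives were chosen with earlier results of these data known, and the exon comparisons were added after probe values were seen. Named genes were the 4 members, the 3 most like each, and list genes that passed a test. Exon numbers are those in the probe names. Genome coordinates were not used here.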

Additional observations from a re-analysis of the deposited data

Results flagged for a closer look

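The change of Mitf from 12C to 15C differed between the 2 blocks by a test of the difference itself. It was 0.19 larger in block 4 than in block 3 on the log2 scale (limma, adjusted p = 0.0243), where the median difference over all genes was 0.11. It was 0.08 with array medians removed (adjusted p = 0.354), 0.08 on the quantile-normalized form of the non-normalized table (adjusted p = 0.698), 0.15 without replicate 1 (adjusted p = 0.542) and 0.19 with detected probes (adjusted p = 0.0514), none of them called. Parents and plate of a block cannot be told apart.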

How the results depend on the processing

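Counts here are of the 4 genes called. At 18C against 12C the count was 1. It was 0 with the median of probes, the brightest probe, block 3 alone, culture stage as a covariate, no cross term, or without replicate 1 or 2. It was 2 on the array-centred non-normalized table and 3 on the quantile-normalized one or with array medians removed. At 15C against 12C it went from 0 to 1 with block 4 alone, and at 18C against 15C from 0 to 1 with array medians removed. For temperature by block the count of 1 became 2 with the median of probes, plate column means removed, culture stage as a covariate or the replicate block, and 0 on both non-normalized tables, with array medians removed or without either replicate. For dams the count of 2 became 1 with block 4 alone and 3, with Fmo2, for the brightest probe and the quantile-normalized table. For sires the count of 4 became 2 with the brightest probe, both non-normalized tables and array medians removed, 1 with block 4 alone, and 2 to 4 when a replicate was left out. The causes were not tested.

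Replicate numbers did not pair cultures: the median correlation of deviations was -0.0026 over 94 pairs, 35 of them over 0.1. With the replicate block Mitf gave adjusted p = 0.00837 at 18C against 12C, and gataC joined Mitf in the temperature-by-block test (F = 5.34, adjusted p = 0.0314).

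The correlation of gcm with Fmo2 (0.248) was 0.443, 0.368 and 0.394 at 12C, 15C and 18C alone, 0.771 in block 3 without 4 crosses, -0.0202 with array medians removed and -0.0638 with female and male means removed. The same correlation was 0.137 and 0.159 between replicates, and 0.030 and 0.111 on the array-centred and quantile-normalized non-normalized tables. With gcm of exons 1 and 2 it was 0.776 (0.801 and 0.760 by block, 0.709 without the 2 farthest crosses, 0.388 with array medians removed, 0.761 and 0.512 within replicates 1 and 2, 0.387 with gcm of replicate 2 and Fmo2 of replicate 1, and 0.855 over male means).

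Over all 74 genes the 13 calls at 18C against 12C became 28, 22 and 23 on the non-normalized tables and with array medians removed, 5 to 7 with the median of probes, stage, no cross term or a replicate left out, and 4 and 8 in blocks 3 and 4 alone. The 3 calls at 15C against 12C ranged from 0 to 5 and the 3 at 18C against 15C from 0 to 8. The 12 calls for temperature by block fell to 6 with detected probes, 2 and 1 on the non-normalized tables, 2 with array medians removed, and 0 and 5 without replicate 1 or 2, and came to 17 with the brightest probe, plate column means removed or the replicate block. The 60 dam calls fell to 26 and 35 without replicate 1 or 2 and 27 in block 3 alone. The 56 sire calls fell to 24 and 35 on the non-normalized tables, 10 without replicate 2, and 34 and 26 in blocks 3 and 4 alone. Of single-gene results, 792 stayed on their side of the threshold with their sign, 48 were lost, 17 gained, and 55 changed sign with neither value past the threshold. Probes near background (gcm probe 3, Fmo2 probes 1 and 2) limit what those probes show.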
